A study of Mus musculus with 7 samples.

Results

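Accessible regions that lay close together along the genome of mouse mammary tumour cells were described here by window and by peak list. Members were chosen by the called regions themselves. Rows of both deposited peak lists that overlapped or touched were merged into union regions, the autosomes were divided into windows of 100000 bp, and every union region of a window that held 20 or more was kept. This left 8060 union regions in 361 dense windows. They were 6.93% of the 116321 autosomal union regions (Wilson 95% interval 6.78 to 7.08) and 6.76% of all 119215, and the windows were 1.47% of 24639 autosomal windows. Intervals here and below cover counting error only, and regions are not replicates.

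ATAC-seq, in which a transposase inserts sequencing adapters into open DNA, was performed to compare chromatin accessibility between Dll1+ and Dll1- tumour cells. Both groups came from spontaneous tumours of C57BL/6 mice with a polyoma middle T transgene under the MMTV promoter (MMTV-PyMT), a driver of luminal-like mammary tumours, and a BAC-based Dll1-mCherry reporter. Cells with CD45, CD31 or Ter119 on their surface were sorted out, and the rest were divided by mCherry into 3 Dll1+ and 4 Dll1- samples from 4 tumours. The authors pooled the samples of each group into 1 peak list, so no value per sample was analysed here, and no difference below could be set against the spread between samples. No age was given for these mice, the reporter marks cells by transgene fluorescence and not by Dll1 protein, and fewer open cells in a population and weaker opening in every cell cannot be told apart. The lists differed in depth. Recovered genome-wide backgrounds were 3.74 reads for Dll1+ and 7.20 for Dll1-, and the lists held 132872 and 148923 rows.

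Accessible regions outside promoters often act as enhancers, short elements to which transcription factors bind and from which they act on genes at a distance. Groups of such elements close to each other are known from genes of cell identity, and dense groups of promoters are known from gene-rich parts of chromosomes. AP-1, a dimer of Fos and Jun proteins, is a frequent binder of enhancers in epithelial cells.

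The strongest members of each kind are shown first, because they show what the calls look like at base level with and without the AP-1 sequence. Each stretch holds the strongest summit with 100 bases on each side, read on the plus strand of GRCm38, and capitals mark TGACTCA or its reverse complement TGAGTCA, the AP-1 sequence.
Both lists, highest fold enrichment, chr13:23488793-23488993, promoter of Btn2a2: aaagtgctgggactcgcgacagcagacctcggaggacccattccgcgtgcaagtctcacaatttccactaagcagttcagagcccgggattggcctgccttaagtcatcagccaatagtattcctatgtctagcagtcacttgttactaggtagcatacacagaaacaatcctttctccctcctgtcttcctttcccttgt
Both lists, highest with AP-1 sequence, chr6:134129962-134130162, intron of Etv6: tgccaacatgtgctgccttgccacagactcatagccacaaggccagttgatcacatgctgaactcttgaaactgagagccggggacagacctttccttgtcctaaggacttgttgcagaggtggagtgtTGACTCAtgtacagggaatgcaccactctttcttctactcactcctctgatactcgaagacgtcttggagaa
Dll1+ list only, highest, chr14:47323127-47323327, intergenic, nearest gene Mapk1ip1l: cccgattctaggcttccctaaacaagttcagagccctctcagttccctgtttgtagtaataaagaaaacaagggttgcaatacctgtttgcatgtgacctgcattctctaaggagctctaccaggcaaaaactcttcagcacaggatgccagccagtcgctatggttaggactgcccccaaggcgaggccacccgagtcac
Dll1+ list only, highest with AP-1 sequence, chr8:41028710-41028910, intron, nearest gene Pdgfrl: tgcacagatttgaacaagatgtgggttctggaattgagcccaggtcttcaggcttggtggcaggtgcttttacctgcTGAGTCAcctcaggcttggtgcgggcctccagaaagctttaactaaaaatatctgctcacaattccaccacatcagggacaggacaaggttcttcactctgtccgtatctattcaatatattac
Dll1- list only, highest, and highest with AP-1 sequence, chr9:96782215-96782415, non-coding exon, nearest gene Zbtb38: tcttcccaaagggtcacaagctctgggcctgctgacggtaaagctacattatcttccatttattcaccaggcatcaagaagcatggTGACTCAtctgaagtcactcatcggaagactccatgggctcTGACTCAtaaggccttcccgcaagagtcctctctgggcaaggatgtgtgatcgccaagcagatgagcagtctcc

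The region at the Btn2a2 promoter reached a fold enrichment, the ratio of reads at the summit to the local background, of 32.2 for Dll1+ and 28.7 for Dll1-. Btn2a2 encodes a butyrophilin. The intronic region in Etv6, the gene of an ETS-family repressor, reached 23.6 and 26.0, and this stretch also held a TEAD sequence. Regions of a single list were weaker. The region near Mapk1ip1l reached 8.23 in the Dll1+ list, and the region with the AP-1 sequence on chromosome 8 reached 5.63. This last region lay within the gene body of Mtus1, and Pdgfrl, the gene with the nearest start site, was 102601 bp away. The region near Zbtb38, the gene of a methyl-DNA-binding zinc-finger protein, reached 12.3 in the Dll1- list and held 2 copies of the AP-1 sequence. It was also the only one of the 5 stretches with more than 1 copy.

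Most members were open in both populations. Of the 8060 members, 5677 (70.4%, 69.4 to 71.4) were in both lists, against 66.4% of all autosomal union regions and 66.1% of those outside dense windows. The Dll1+ list alone held 649 members (8.05%, 7.48 to 8.67), against 8.93% of all autosomal regions. The Dll1- list alone held 1734 (21.5%, 20.6 to 22.4), against 24.6% of all. When only rows above the median fold of their list were kept, the direction of this last difference turned, to 21.97% in dense windows against 20.4% elsewhere, and the shared share was 69.4% against 69.8%. Because members were picked on these same calls, the shares are descriptions and carry no test.

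The number of regions per window fell off smoothly across the threshold. There were 174 windows with 18 regions and 140 with 19, just outside, and 102 with 20 and 70 with 21, just inside. The filling reached 36 regions, and 57 windows held 25 or more. Within a dense window the median number of regions was 22, of which a median of 16 were in both lists (range 9 to 27), 2 in the Dll1+ list only (0 to 6) and 5 in the Dll1- list only (0 to 12).

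**Figure D1:**
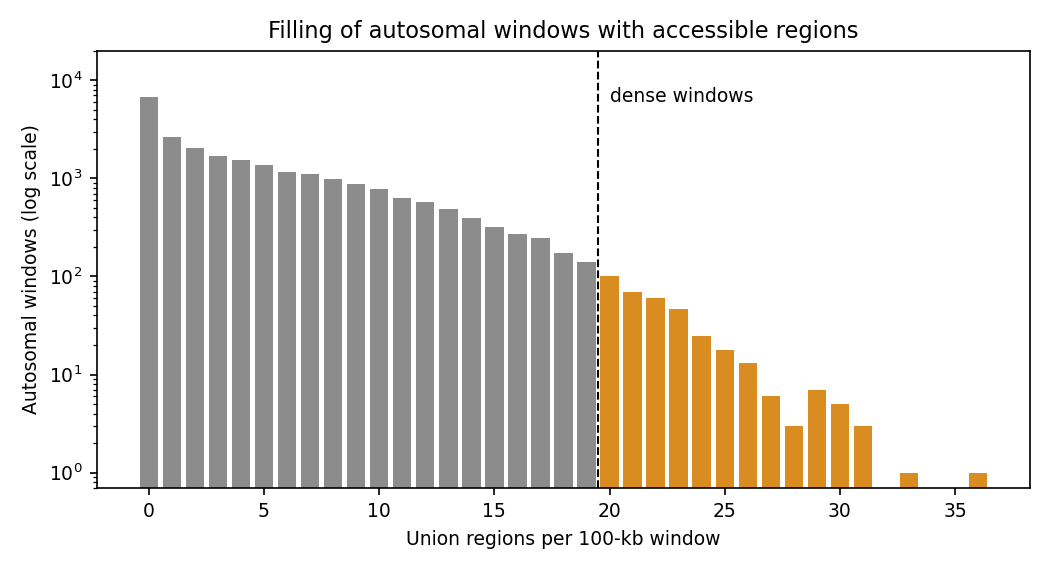
Number of autosomal 100-kb windows (y axis, log scale) by the number of union regions they hold (x axis). Orange bars right of the dashed line are the 361 dense windows, from 102 windows with 20 regions to 1 window with 36.

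Most sequence of dense windows was outside called regions. Called sequence covered 11.5% of their length in all (7.82% to 18.4% per window), against 2.41% of the other autosomal windows. The median distance between neighbouring regions had a median of 2627 bp over dense windows (1069.5 to 5152), against 7064.75 bp over other windows with at least 2 regions. The single regions were not wider, with a median width of 437 bp in dense windows and 446 bp elsewhere, and 30.9% against 31.8% had several summits. Their sequence was richer in G and C, with a median of 53.7% against 49.8%.

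By window, the share of regions in both lists ran from 41.9% to 92%, with a median of 70.8%. No dense window had all its regions in both lists. The Dll1- only regions outnumbered the Dll1+ only regions in 298 windows, the opposite held in 39, and 24 had equal numbers. Over all autosomal regions the Dll1- list alone held 28672 and the Dll1+ list alone 10389, an excess in the same direction. Regions of the Dll1+ list only were missing from 65 dense windows, and regions of the Dll1- list only from 2.

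The 2 lists did not give the same dense windows when each was counted alone. The Dll1- list had 20 or more regions in 252 windows and the Dll1+ list in 85, and 70 windows were dense by both. Of the windows dense by 1 list, 236 of 252 and 84 of 85 were among the 361. The 70 were 82.4% (72.9 to 89.0) of the Dll1+ windows and 27.8% (22.6 to 33.6) of the Dll1- windows. The 15 windows dense by the Dll1+ list and not by the Dll1- list held 17 to 19 regions of the Dll1- list, close to the threshold. They included the windows around Mcl1, which encodes a survival protein of the Bcl2 family, Epha2, an ephrin receptor, and Tgfb3, a TGF-beta ligand (these 3 genes were picked after the values were seen). The deeper Dll1- list holds more rows, and the part of depth in these counts was not tested.

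The densest window, W1 in the numbering used here by falling number of regions, lay at chr8:84700001-84800000. It lay wholly within the gene body of Nfix, which encodes a nuclear factor I transcription factor. The window also held the start sites of Lyl1 and G430095P16Rik, and that of G430095P16Rik was nearest to 18 of its regions. Its 36 regions comprised 27 in both lists, 5 in the Dll1+ list only and 4 in the Dll1- list only. Fold enrichment of the shared regions ranged from 2.41 to 11.2 in the Dll1+ list (median 4.55) and from 2.20 to 8.64 in the Dll1- list (median 4.22). Its summits had up to 180 reads for Dll1+ and up to 238 for Dll1-. Reads at the summit relative to the genome-wide background were higher in the Dll1+ list at 26 of its 27 shared regions. Over all members in both lists this held for 68.9% (67.7 to 70.1), and for 69.5% of shared regions elsewhere. The local background in the window was also higher for Dll1+, with a median of 4.54 times the genome-wide level against 3.07 times for Dll1-. The part of this background in the read difference was not tested. Not 1 of the 36 regions held the AP-1 sequence within 100 bp of its summit, and 8 of the 361 dense windows had none.

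Nfib, a second gene of the nuclear factor I family, held the fourth window of the ranking, chr4:82400001-82500000, wholly in its gene body. Here only 13 of 31 regions were in both lists, the lowest share of any dense window, with 6 in the Dll1+ list only and 12 in the Dll1- list only. One shared region stood far above the rest, with a fold of 18.03 in the Dll1+ list and 21.1 in Dll1- cells, against medians of 3.75 and 3.79 over the 13. The 18 regions of a single list had folds from 3.05 to 4.03 in the Dll1+ list and from 2.45 to 6.13 in the Dll1- list.

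Around Pmepa1, which encodes a membrane protein that dampens TGF-beta signalling, the window chr2:173200001-173300000 held 33 regions. They comprised 19 in both lists, 6 in the Dll1+ list only and 8 in the Dll1- list only. The start site of Zbp1, a sensor of nucleic acids, lay in the same window. Cebpb, the gene of a transcription factor of the mammary epithelium, lay in the window chr2:167600001-167700000 with Ube2v1, Tmem189 and the read-through gene Gm20431. That window held 31 regions, 19 in both lists, 3 in the Dll1+ list only and 9 in the Dll1- list only. Fold enrichment reached 15.5 for Dll1+ and 11.7 for Dll1-, and 8 of the 31 held the AP-1 sequence. The window next to it, chr2:167700001-167800000, had no body and no start site of a protein-coding gene, yet held 30 regions, of which 22 were in both lists, 2 in the Dll1+ list only and 6 in the Dll1- list only. The nearest start site, that of Tmem189, lay at a median of 57608 bp from them.

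**Figure D2:**
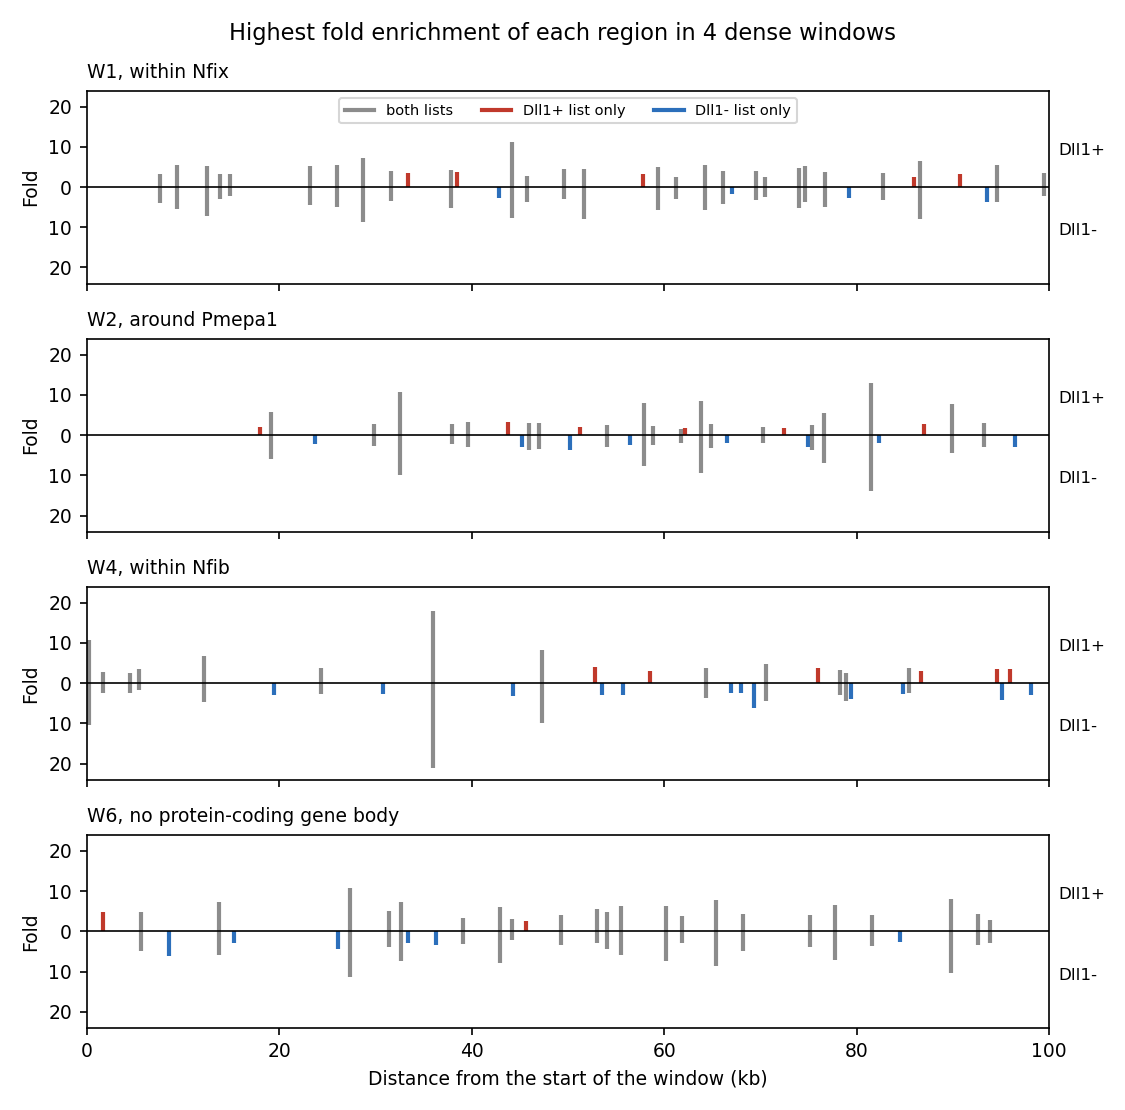
Highest fold enrichment of each union region in the Dll1+ list (upward) and the Dll1- list (downward) by distance from the start of the window, for 4 of the densest windows. Grey lines are regions in both lists, red in the Dll1+ list only and blue in the Dll1- list only; the tall pair of lines within Nfib stands at 18.03 and 21.1, while the Nfix window has no line above 11.2.

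The other windows among the 10 densest were of different make-up. The window at chr18:60700001-60800000 held the start sites of Rps14, a ribosomal protein gene, and Ndst1, whose product modifies heparan sulfate, with 31 regions, of which 20 were in both lists, 1 in the Dll1+ list only and 10 in the Dll1- list only. A window within Fndc3b (chr3:27600001-27700000) held 30 regions, 19 in both lists, 5 in the Dll1+ list only and 6 in the Dll1- list only. The window of Cd9, a tetraspanin gene, at chr6:125400001-125500000 held 30, of which 21 were in both lists, and 11 held the AP-1 sequence, the most of any dense window. The remaining pair were rich in promoters. At chr10:80100001-80200000, with start sites of Sbno2, Stk11, Atp5d, Cbarp, Midn, Cirbp, 1600002K03Rik and Efna2, 25 of 30 regions were in both lists. Stk11 encodes the kinase LKB1 and Cirbp an RNA-binding protein of the cold response. At chr13:23500001-23600000, with 14 replication-dependent histone genes from Hist1h4h to Hist1h4d, 25 of 30 regions were in both lists, 14 were promoter regions and 1 held the AP-1 sequence.

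The windows with the largest excess of Dll1+ only over Dll1- only regions were small in excess. Shroom3, which encodes an actin-binding protein that shapes epithelial cells, contained the window chr5:92800001-92900000 with 20 regions in both lists, 6 in the Dll1+ list only and 2 in the Dll1- list only. In the window chr17:31700001-31800000, without a protein-coding gene body and nearest to the lens crystallin gene Cryaa, the counts were 17, 6 and 3 in the same order. The window chr11:79000001-79100000 lay largely in Ksr1, a scaffold gene of the MAP kinase cascade, with 14, 6 and 3. At Ehf, the gene of an epithelial ETS factor (chr2:103200001-103300000), there were 13, 6 and 3 regions. In a window mostly within Snx30, which also held the start site of Inip (chr4:59800001-59900000), 13, 5 and 2 were counted. These last 4 windows had an excess of 3, as did a window with the start sites of Mansc1 and Borcs5 (17, 3 and 0).

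In the opposite direction the excess was larger. The gene body of Trim2, a ubiquitin ligase gene, contained the window chr3:84200001-84300000, with 14 regions in both lists, none in the Dll1+ list only and 12 in the Dll1- list only. At Shb, which encodes a signalling adaptor, and Slc25a51 (chr4:45400001-45500000), the counts were 15, 0 and 11 in the same order. The window of Pdgfb, a growth factor gene, Syngr1 and the ribosomal protein gene Rpl3 (chr15:80000001-80100000) had 10, 1 and 12. Rai1, with the nearby sterol regulator gene Srebf1, gave 11, 0 and 10 (chr11:60100001-60200000). The window of Rps14 and Ndst1 above had an excess of 9, which it shared with 4 further windows not described here. Most single-list regions of these 5 windows were thus called in the deeper list, and the part of depth was not tested.

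**Figure D3:**
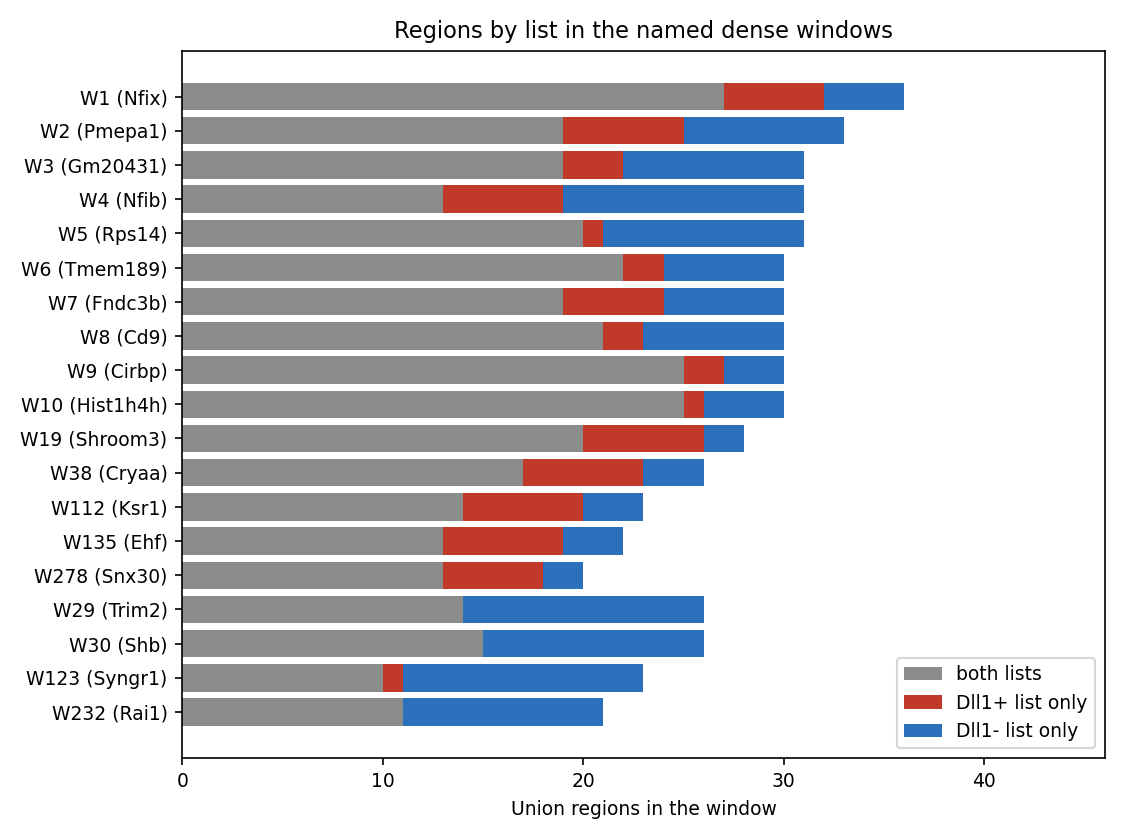
Union regions in each named dense window (x axis) by the list they were called in, with the gene whose body covers most of the window or, otherwise, the nearest gene. Grey is both lists, red the Dll1+ list only and blue the Dll1- list only; the upper 10 bars are the densest windows (36 to 30 regions), the next 5 have the largest Dll1+ only excess and the last 4 the largest Dll1- only excess (ties aside), with W5 counted among the upper bars.

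Some dense windows adjoined others. The 361 windows, 1.47% of autosomal windows, formed 318 runs of adjacent windows, of which 285 were single windows and 33 held 2 or more (76 windows in all). The longest run had 4 windows and 96 regions at chr8:70500001-70900000, with 69 in both lists, 7 in the Dll1+ list only and 20 in the Dll1- list only. It contained 25 protein-coding start sites, among them those of Jund, an AP-1 subunit gene, Gdf15, a stress cytokine gene, and Pik3r2, a regulatory subunit gene of PI3 kinase. The run at chr2:167600001-167900000, which started at Cebpb, had 89 regions in 3 windows with only 4 start sites, and the later windows of the run had none. A run of 71 regions at chr17:45500001-45800000 held the NF-kB inhibitor gene Nfkbie and the chaperone gene Hsp90ab1. Runs of 70 regions lay at chr10:79900001-80200000 around Stk11, at chr11:117100001-117400000 with Sec14l1 and the septin gene Sept9, and at chr14:25400001-25700000 with the coregulator gene Zmiz1 and Ppif.

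Among chromosomes, the share of dense windows was highest on chromosomes 11 (2.46%), 15 (2.40%), 8 (2.39%) and 17 (2.32%). It was lowest on chromosomes 13 (0.581%), 16 (0.610%) and 1 (0.767%). Chromosome 2 had the most, with 37 windows and 856 members. The share of members in both lists ran from 64.2% on chromosome 16, which had 6 dense windows, to 74.6% on chromosome 19.

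Members were not mainly promoters. A promoter class, from 1000 bp upstream to 100 bp downstream of a start site, held 11.4% of members (10.7 to 12.1) and 11.7% of regions elsewhere. Introns held 56.1% (55.0 to 57.1) against 46.4%, and intergenic sequence 25.8% (24.9 to 26.8) against 35.1%. Members lay nearer to start sites of protein-coding genes, with a median distance of 20488.5 bp against 29489 bp, and 24.96% against 37.3% were more than 50 kb away.

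Gene content varied widely between dense windows. There were 93 dense windows (25.8%, 21.5 to 30.5) without a protein-coding start site, against 59.6% of the other windows, 103 with 1, 113 with 2 to 4 and 52 with 5 or more. A single protein-coding gene body covered at least 50% of 147 dense windows, and in 91 of these the start site of that gene lay outside the window. In 55 windows 1 gene body covered the whole window, as for Nfix, Nfib, Fndc3b, Shroom3 and Trim2, and 20 windows had no protein-coding gene body (gene bodies were examined after the values were seen). The predicted read-through gene Gm20388, annotated over several megabases, led in 6 dense windows, so its gene body says little there. Counted by nearest start site, 1011 genes had at least 1 member and 113 had 20 or more. Among the genes with the most were Sept9 (47), Klf14 (42), Zfp36l2, the gene of an RNA-binding protein of messenger decay (40), and Zfp516 (40).

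Of 20807 autosomal protein-coding genes, 779 (3.74%) had their start site in a dense window. Gene lists are given beside this background with no test. Among AP-1 subunit genes, 4 of 12 lay in dense windows, namely Fosb (29 regions, 21 in both lists, 0 in the Dll1+ list only, 8 in the Dll1- list only), Junb (26, 19, 1 and 6 in the same order), Fos (23, 18, 1 and 4) and Jund (21, 13, 4 and 4). Early response genes, which are induced within minutes of a stimulus, had 5 of 20 in dense windows, namely Gadd45b, Ier5, Nr4a1, Klf6 and Dusp6. Luminal genes had 8 of 32, namely Muc1, Krt18, Krt8, Cdh1, Cldn3, Cldn4, Gata3 and Spdef, of which Cldn3 with Cldn4 and Krt8 with Krt18 shared a window. Of the basal list 2 of 30 did, Sox10 and Egfr.

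TGF-beta and SMAD genes had 4 of 20 (Smad3, Tgfb3, Id1 and Tgfbr3), epithelial adhesion genes 3 of 25 (Cdh1, Cldn3 and Cldn4), TEAD, Runx and Hippo genes 2 of 20 (Amotl2 and Wwc1), Wnt genes 2 of 25 (the co-receptors Lrp5 and Lrp6) and ErbB genes 1 of 16 (Egfr). Notch genes had 2 of 40, the receptor gene Notch1 (29 regions, 19 in both lists, 2 in the Dll1+ list only and 8 in the Dll1- list only) and Spen, whose product binds the Notch effector RBPJ. Among NF-kB subunits and inhibitors, 3 of 14 lay in dense windows. The window of Nfkbie had 25 regions, 23 in both lists and 2 in the Dll1+ list only, that of Nfkb2 had 16, 3 and 4 regions by list, and that of the nuclear inhibitor homologue gene Bcl3 had 16, 0 and 5. NF-kB target genes had 1 of 30, Tnfaip2. Of marker genes of other cells that a sort could hold, 0 of 20 immune and 0 of 20 fibroblast genes lay in dense windows and 2 of 15 endothelial genes did, Egfl7 in the window of Notch1 and Eng.

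Of 11 further genes fixed by name, only luminal Krt8 lay in a dense window, with 25 regions, 20 in both lists, 3 in the Dll1+ list only and 2 in the Dll1- list only. Nfkb1 lay just outside, in a window of 19 regions (12, 3 and 4). The windows of basal Krt14 and Krt5 held 16 and 11, those of Sox9 and Myc 14 and 11, that of Bglap2 14, and those of Hepacam2, Ntrk3 and Npy 8, 7 and 2. The window of Dll1 held 13 regions. Its lowest local background stood at 3.01 times the genome-wide level for Dll1+ and 3.58 times for Dll1-, and the reporter construct carries mouse DNA of the Dll1 locus. The part of extra copies there was not tested.

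By reads members were stronger than other regions, and by fold enrichment weaker. The strongest summit of a member had a median of 61 reads for Dll1+ and 89 for Dll1-, against 47 and 65 elsewhere. Median fold enrichment was 5.70 and 5.10, against 7.14 and 6.00. Around members the local background had a median of 2.59 times the genome-wide level for Dll1+ and 2.21 times for Dll1-, against 1.38 and 1.20. A local background is set from sequence around the summit, so that reads of neighbouring regions can enter it, and how far they did was not tested.

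The same opposite trends ran through the whole range of densities. Regions were ranked among all rows of their own list and the higher percentile was taken. From windows with 1 to 4 regions to those with 25 or more, the median read percentile rose from 41.6 to 69.1. Over the same range, the median fold percentile fell from 61.7 to 46.7, with a small rise to 62.9 at 5 to 9 regions. Median local background went from 1.00 to 3.17 times the genome-wide level for Dll1+ and from 1.00 to 2.70 times for Dll1-.

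**Figure D4:**
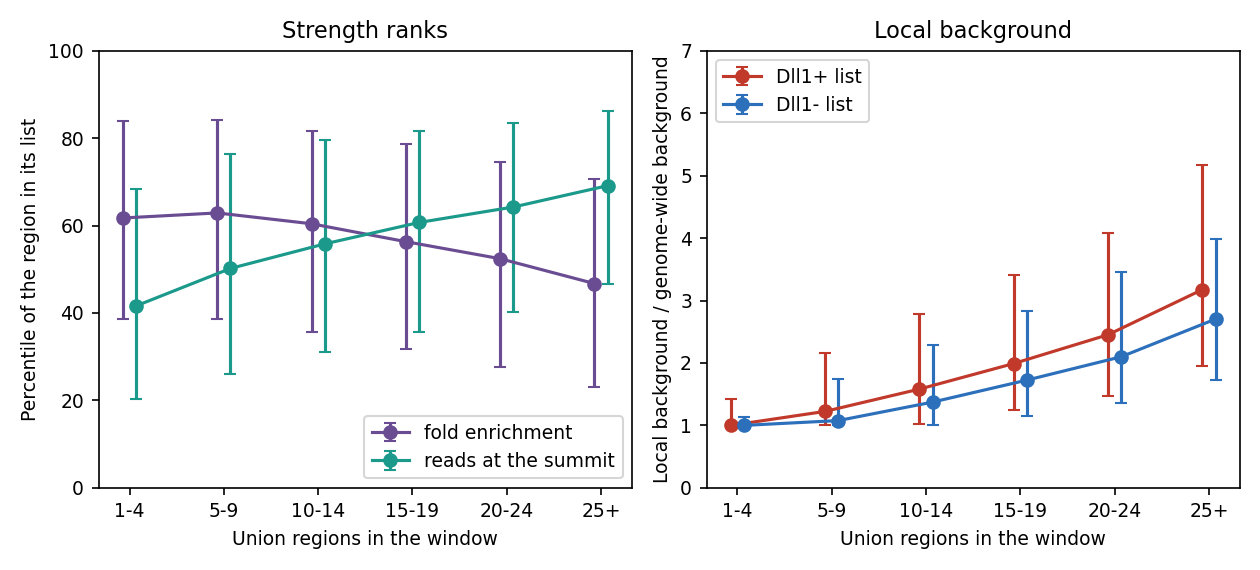
Left, percentile of regions within their list by fold enrichment (purple) and by reads at the summit (green); right, local over genome-wide background in the Dll1+ list (red) and its Dll1- counterpart (blue), both by the number of union regions in the window. Points are medians and bars run from the lower to the upper quartile; from the emptiest to the fullest windows the median read percentile goes from 41.6 to 69.1 and the fold percentile from 61.7 to 46.7.

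Within dense windows the regions of a single list were narrow and weak. Median width was 530 bp for members in both lists, 287 bp for those of the Dll1+ list only and 280.5 bp for those of the Dll1- list only. Median fold percentile was 64.3, 19.3 and 22.8 in the same order. Regions elsewhere had the same order, with fold percentiles of 75.3, 29.4 and 33.5.

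Members were more often in both lists than other regions, but within a range of read percentiles they were less often so. Between the 50th and 75th read percentile, 75.6% (73.8 to 77.3) of 2396 members were in both lists, against 85.3% (84.9 to 85.7) of other regions. Between the 25th and 50th it was 48.1% (45.7 to 50.5) against 55.2%. Above the 75th it was 96.6% (95.9 to 97.2) against 98.9%, and below the 25th 14.9% (12.8 to 17.2) against 17.3%, where the intervals overlapped. The direction of the overall difference therefore depended on whether reads were held alike. Fold enrichment was not alike within these ranges, with a median fold percentile of 50.7 in members against 73.9 elsewhere between the 50th and 75th read percentile. Its part and that of local background in the reversal were not tested.

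**Figure D5:**
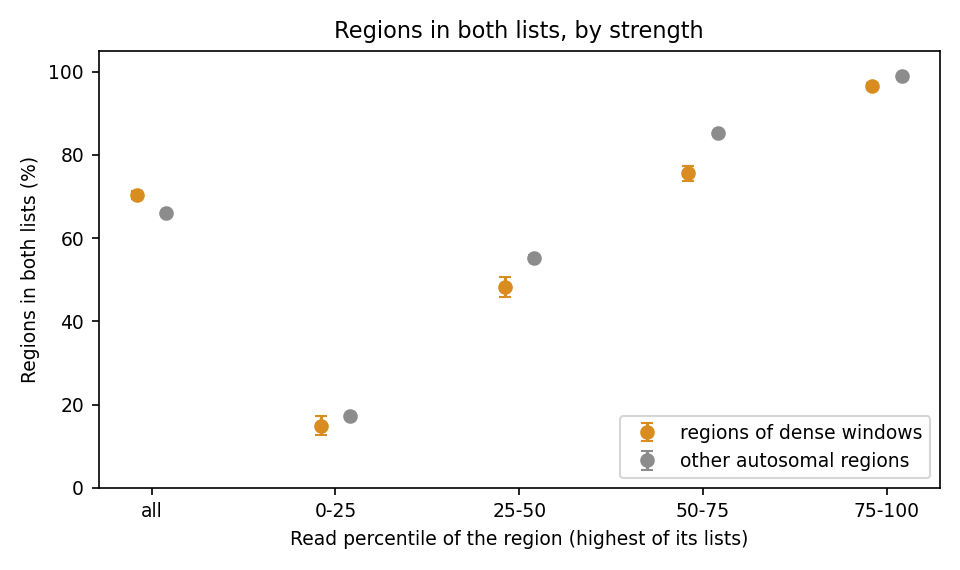
Share of union regions in both lists (y axis, %) for all regions and by read percentile (x axis), in dense windows (orange) and elsewhere on the autosomes (grey), with Wilson 95% intervals. Over all regions the orange point is higher (70.4% against 66.1%), and within each of the percentile ranges it is lower, as at the 50th to 75th percentile (75.6% against 85.3%).

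Summed over a window, reads at the summits relative to each list's genome-wide background differed little between the lists. The log2 ratio of Dll1+ to Dll1- had a median of 0.11 over the 361 dense windows, with a range from -0.69 to 0.81, and was above 0 in 254. The median over other windows was 0.15, and 10306 of 15887 were above 0. The highest values, read after the windows had been sorted by this ratio, were at Cytip (0.81), Ehf (0.74), Snx30 (0.67), Ksr1 (0.66) and Nfix (0.65). The lowest were at Pdgfb with Syngr1 and Rpl3 (-0.69), Grap with Fam83g (-0.68), a window near Mef2a without a protein-coding gene body (-0.61), Cdk18 (-0.44) and Ptges (-0.43). In each of these windows the median local background, relative to the genome-wide level, differed in the same direction. It was 2.88 for Dll1+ against 1.61 for Dll1- at Cytip, and 1.66 against 1.94 at Pdgfb. The part of local background in these ratios was not tested. Windows with more regions of 1 list tend towards that list by construction, because a region absent from a list adds no reads to it.

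The AP-1 sequence was as frequent in members as elsewhere, at 18.1% (17.2 to 18.9) and 18.1%, and at 18.1% of all autosomal regions. It was searched as TGACTCA on both strands within 100 bp of the summit. By list it was held by 16.3% of members in both lists, 3.39% of those in the Dll1+ list only and 29.4% of those in the Dll1- list only. The same order was seen elsewhere, with 15.3%, 4.51% and 30.5%. In each class the shares inside and outside dense windows were close. The median dense window had 4 regions with the sequence, and the range was 0 to 11.

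Other sequences were each searched on both strands, and the share over all autosomal regions is given last. TEAD (ACATTCC or GCATTCC) was found in 9.11% of members, 8.61% of other regions and 8.65% of all. RUNX (TGTGGTT) was found in 4.38%, 5.11% and 5.06%, and FOX (TGTTTAC) in 3.18%, 3.75% and 3.71%. The intervals of members for RUNX (3.95 to 4.85) and FOX (2.82 to 3.58) lay below the shares elsewhere, as did that for ETS (0.666 to 1.07), given below. CTCF (AGGGGGC, part of its motif) was found in 5.92%, 5.25% and 5.30%, the NF-kB consensus in 3.64%, 2.99% and 3.04%, and RBPJ (CGTGGGAA or TGTGGGAA) in 2.58%, 2.05% and 2.08%. The intervals of members lay above the shares elsewhere for CTCF (5.42 to 6.45), NF-kB (3.25 to 4.07) and RBPJ (2.26 to 2.95). ETS (CCGGAAGT) was found in 0.844%, 1.09% and 1.07%, and GRHL (AACCGGTT) in 0.360%, 0.264% and 0.271%. Members were richer in G and C, and the part of base composition in these shares was not tested. A match is a stretch of letters and not a bound factor.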

How the data were processed

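ATAC-seq peak lists of Dll1+ (3 samples) and Dll1- (4 samples) tumour cells were used. Peaks had been called by the authors with the ENCODE pipeline for ATAC-seq in batches of replicates, and 1 pooled optimal peak list per group was deposited. Aligner, peak caller and thresholds are not given in the sources used here. The submitters' processing notes name GRCm38 and mm10, and 0 rows passed a chromosome end. Each deposited row gives an interval, a summit, a fold enrichment (a ratio of reads to local background), a −log10 p-value, a −log10 q-value and a score. The deposited score and q-value were used for nothing further. The authors' later read counts per sample and their comparison were not analysed here.

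Summit reads and local background were worked out from the deposited fold and −log10 p-value under a Poisson model, in which fold is reads plus 1 over background plus 1, with a tolerance of 0.02 on the −log10 p-value. All 132872 Dll1+ rows and all but 1 of 148923 Dll1- rows were recovered, with medians of 43 and 61 reads at the summit. Recovery and window counting were tested on simulated data. Without molecular identifiers, reads cannot be taken as independent molecules.

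A union region belonged to the window holding its midpoint and was in both lists if each contributed a row. Classes and genes came from GENCODE M21 (basic), and sequences from GRCm38.p6. Shares carry Wilson 95% intervals. No p-value was computed, since pooled lists have no replicates and members were selected on the same calls. Named were the 10 densest windows, 5 with the largest excess in each direction (in ties, those with more regions, then by position), the 5 longest runs (with ties), 11 genes fixed by name and listed genes in dense windows. Members, lists and rules were chosen with earlier results of these data known. Python 3.11.15, pandas 2.3.3, numpy 2.4.6, scipy 1.17.1 and pysam 0.24.0 were used. Alternatives changed the threshold, grid, window size, promoter width, motif width, row filters and overlap. One gene is not reported here.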

Additional observations from a re-analysis of the deposited data

How the results depend on the processing

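No paired analysis was possible because the files used here give each group as 1 pooled list, and for the same reason no sample could be left out. At 25 regions per window, 57 windows and 1549 members were left, with a strength percentile (fold) of 46.7. At 15, there were 1517 windows and 27250 members, a Dll1- only share of 22.4% and a percentile of 54.9. Shifting the grid by 50 kb gave a shared share of 69.4% and a percentile of 50.5. Windows of 50 kb with 10 regions gave 1532 windows, 17601 members and an AP-1 share of 18.9%. A promoter of 2500 bp on each side held 26.0% of members, and AP-1 within 50 bp of the summit was found in 13.8%. Shares elsewhere at these widths are not given here, so neither value can be set beside the main shares of other regions. Among rows above the median fold, 1 window with 20 members remained, and the shared share in the original dense windows was 69.4%, against 69.8% elsewhere, so the higher share in dense windows was lost, and the Dll1- only share was 21.97% against 20.4%, turning the direction of that comparison. With equal numbers of rows, the Dll1+ only share was 9.21% against 10.2% elsewhere, and the Dll1- only share 19.6% against 22.6%. Under this setting 325 windows remained. A reciprocal overlap of 50% gave a shared share of 66.8%, against 62.5% elsewhere. The row and overlap filters act by construction. So does the direction of change of window and member counts with the threshold, and of the promoter and AP-1 shares with width. For the other changes the cause was not tested. The other 36 values moved by less than their interval, or for counts by less than 1.5 times. They include the single-list shares under reciprocal overlap, which were not recomputed and so could not move. The settings of the read ratio per window were added after seeing the data. Depth differs between the lists, and no setting removes this in full.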

Other observations

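Both gene bodies of the nuclear factor I family named above led to a look at all 4 family members, chosen after the values were seen. Over the whole gene body, Nfix held 37 union regions in 100469 bp (36.8 per 100000 bp), of which 27 were in both lists, 5 in the Dll1+ list only and 5 in the Dll1- list only. Nfic held 18 in 59450 bp (30.3 per 100000 bp), all in 1 dense window, with 14, 2 and 2 by list. Nfib held 71 in 415578 bp (17.1 per 100000 bp), with 35, 14 and 22, and Nfia held 41 in 346141 bp (11.8 per 100000 bp), with 28, 7 and 6 and no dense window. Reads relative to the genome-wide background were higher in the Dll1+ list at 26 of 27 shared regions in Nfix, 12 of 14 in Nfic, 31 of 35 in Nfib and 20 of 28 in Nfia, against 68.9% of all shared members and 69.5% of shared regions elsewhere, where all regions of Nfia and most of Nfib lay. These genes were picked for their density and regions of a gene are not replicates, so no test was made.

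The X chromosome was outside the rule. It held 2889 union regions in 1711 windows, and 1 window reached 20 regions, with 21.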
